A study of Mus musculus with 4 samples.

Results

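The genes described here are 7 cell-surface receptors that place blood cells in the marrow or move them out of it: Cxcr4, Ccr7, Cxcr5, Ccr9, S1pr1, Itga4 and Itgb7. They were chosen by name for this role, with earlier results of these data known, and all 7 of them were found among the 32285 genes counted. The cells were mouse bone marrow cells taken 10 weeks after transplantation and sorted for CD45.2, a surface antigen that tells donor from host blood cells. Each of 4 groups was 1 library made with the 10x Genomics 5′ version 2 kit: Kit+ cells labelled control, Kit+ cells labelled Mll3/4 deleted, Kit+ cells labelled Mll3/4SI, and B220lo cells labelled control. Kit is a surface receptor of stem cells and progenitors. B220 is found at a low level on early B-lineage cells and plasmacytoid dendritic cells. Mll3 and Mll4 are histone methyltransferases of enhancers. The labels do not expand SI, and they do not give the number, age or sex of the mice, the allele or Cre line used, or the host. With 1 library a group no difference between groups could be tested. The 95% intervals given below are exact, cover counting error only and say nothing of the spread between animals.

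CXCR4 binds CXCL12 made by marrow stroma and holds stem cells and early B cells in the marrow. CCR7 and CXCR5 guide lymphocytes into lymph nodes and follicles, CCR9 guides cells to the gut and thymus, and S1PR1 draws cells out of tissue into the blood. The integrin subunit encoded by Itga4 pairs with the product of Itgb1 to bind Vcam1 on stroma, or with the product of Itgb7 to bind Madcam1 on gut vessels.

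In the GENCODE M21 annotation of GRCm38, Cxcr4 (ENSMUSG00000045382) lies at chr1:128588199-128592293 on the minus strand, and S1pr1 (ENSMUSG00000045092) at chr3:115710433-115715072 on the minus strand. Ccr7 (ENSMUSG00000037944) lies at chr11:99144196-99155077 on the minus strand, and Cxcr5 (ENSMUSG00000047880) at chr9:44511787-44561877 on the minus strand. Ccr9 (ENSMUSG00000029530) lies at chr9:123678439-123784330 on the plus strand, Itga4 (ENSMUSG00000027009) at chr2:79255426-79333123 on the plus strand, and Itgb7 (ENSMUSG00000001281) at chr15:102215995-102231944 on the minus strand. Ccr9 and Itgb7 were the receptors most raised in Siglech cells over Cd79a cells, so the 250 bases before their RefSeq start sites (GRCm38.p6) are shown, 5′ to 3′ on the gene's strand. Capitals mark E-boxes, the letters CANNTG, which basic helix-loop-helix factors such as the dendritic-cell regulator TCF4 can bind.
Ccr9 (chr9:123766961-123767210, plus strand): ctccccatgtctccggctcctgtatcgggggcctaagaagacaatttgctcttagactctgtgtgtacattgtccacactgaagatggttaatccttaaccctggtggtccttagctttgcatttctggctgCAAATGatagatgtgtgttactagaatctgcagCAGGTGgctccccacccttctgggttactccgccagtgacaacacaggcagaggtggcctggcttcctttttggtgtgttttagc
Itgb7 (chr15:102231936-102232185, minus strand): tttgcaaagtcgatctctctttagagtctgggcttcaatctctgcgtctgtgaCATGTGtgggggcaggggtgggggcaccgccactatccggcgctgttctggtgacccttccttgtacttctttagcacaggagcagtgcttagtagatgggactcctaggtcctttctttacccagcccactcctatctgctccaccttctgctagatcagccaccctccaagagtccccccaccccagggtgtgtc
The Ccr9 window held CAAATG at base -118 and CAGGTG at base -85 from the start site, and the Itgb7 window held CATGTG at base -197. The Ccr9 window lies within the GENCODE span of the gene, so the RefSeq start site used is not the first base of that span. The Itga4 window held CAGCTG at base -125, and the Cxcr4 window held no CANNTG. Of 32851 mouse promoters searched over the same length, 66.2% held a CANNTG, which reads the same on both strands, and 17.2% held CAGGTG or its reverse complement. A match to so common a motif is a description of these letters and not of a bound site.

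The libraries held 12205 (control Kit+), 15091 (Mll3/4 deleted Kit+), 12345 (Mll3/4SI Kit+) and 16861 (control B220lo) cell barcodes, and 51679 of the 56502 cells were kept after filters on depth, mitochondrial share and doublet score. Kept cells had a median of 11594, 6507, 11969 and 3246 unique molecular identifiers (UMIs), so a B220lo cell was read less deeply than a Kit+ cell. Any pair of libraries shared 214 to 345 barcodes, at most 2.34% of a library. Kmt2c, the gene of Mll3, stood at 51.8 to 62.7 UMIs per 1000000 UMIs of the library (CPM) and Kmt2d, the gene of Mll4, at 20.1 to 24.0 CPM in the Kit+ libraries. The deleted part of either gene is not given in the sources used here, so these levels check nothing. The 4 Y-linked genes summed to 148 CPM in the deleted library and to at most 0.570 CPM in the others, so the deleted library came from males and the others from females. Genotype, sex and library cannot be told apart in any comparison of the deleted library, and neither can the sort gate and depth where it is set against the B220lo library.

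Cells were gated on their own UMIs: at least 2 of Cd79a for B-lineage cells, at least 2 of Siglech for plasmacytoid dendritic cells, at least 1 of Hlf for stem-like progenitors and at least 10 of Elane for granulocyte progenitors. Cells of the Cd79a gate numbered 12834 in the deleted library and 11729 in the B220lo library, against 51 in the control Kit+ and 31 in the Mll3/4SI library. They were then split by the immunoglobulin contigs assembled for the same barcode. In the deleted library 9847 had no contig, 2954 a heavy chain only, 13 a light chain only and 20 both. In the B220lo library 3254 had no contig, 1617 a heavy chain only, 570 a light chain only and 6288 both. The 12 B-lineage markers summed to 14348 and 14179 CPM in the deleted cells without contig and with a heavy chain only, and to 12560 and 10261 CPM in the same states of the B220lo library. They include Cd79a, the gene of the gate, so these sums are in part fixed by the gate. The 6 mature B markers summed to 12.8 and 15.2 CPM in the deleted cells against 477 and 290 CPM in the B220lo cells. Markers of other cells differed between the libraries too. Without contig the sums in deleted against B220lo cells were 737 against 145 CPM for the 10 stem and progenitor markers, 21.4 against 215 CPM for the 5 monocyte and macrophage markers, 93.3 against 456 CPM for the 7 erythroid markers and 1.91 against 43.7 CPM for the 5 basophil and mast-cell markers. With a heavy chain only they were 752 against 68.4, 22.3 against 124, 31.8 against 548 and 1.90 against 2.56 CPM. The stem and progenitor list includes Kit, the antigen of the Kit+ sort, so its difference is in part set by the sort. The part of the cells that carried these markers in the receptor levels was not tested. A level below is the sum of a gene's UMIs over the cells of a group, in CPM of all their UMIs.

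In B-lineage cells without contig or with a heavy chain only, the receptors were lower in the deleted Kit+ library than in the control B220lo library. The 13 and 20 deleted cells with a light chain only or both chains were too few to compare. Among cells with no contig, all 7 of 7 receptors were more than 2-fold lower in the deleted library, where 15% of the 14063 genes compared were lower by that much, 14.3% were higher and 29.2% differed either way. Among cells with a heavy chain only, 4 of the 5 receptors with at least 50 UMIs over both groups were more than 2-fold lower, where 10.4% of 12146 genes were lower by that much, 17.9% were higher and 28.2% differed either way. Ccr7 (5 and 541 UMIs) and Ccr9 (6 and 46 UMIs) reached 50 UMIs there only through the B220lo cells. Without cells of other gates Ccr9 held 6 and 20 UMIs and would not be counted. Without contig, Ccr7, Cxcr5, Ccr9 and Itgb7 likewise had fewer than 50 UMIs in the deleted cells. The median log2 ratio of the receptors was -4.58 without contig and -2.5 with a heavy chain only, against -0.06 and -0.0069 over all genes compared. The plot of receptor levels by contig state shows every group.

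**Figure D1:**
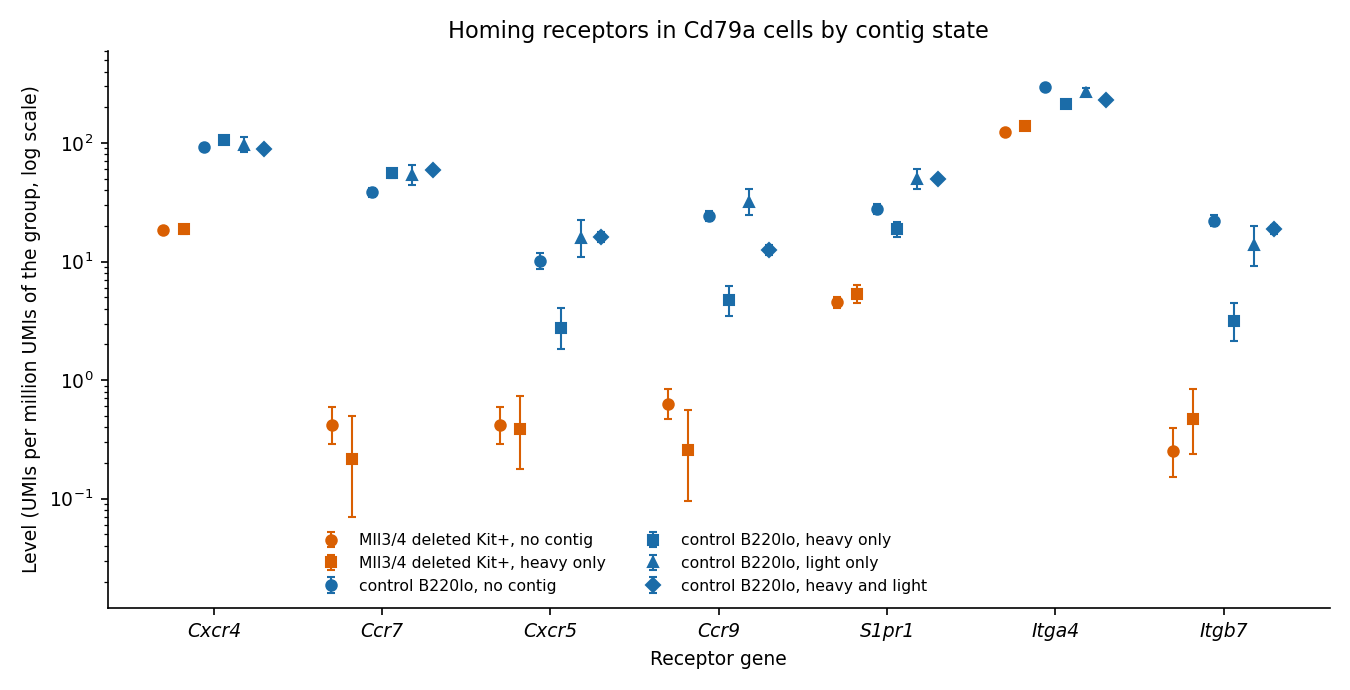
Levels of the 7 receptors (CPM, log axis) in cells with at least 2 Cd79a UMIs, by library (colour) and contig state (marker); bars are exact 95% Poisson intervals for counting error, with 1 library a group. Both deleted states shown lie below every B220lo state for each receptor; without contig the gap runs from 2.41-fold for Itga4 to 90.8-fold for Ccr7.

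Cxcr4, the CXCL12 receptor, stood at 18.4 CPM (interval 17.4 to 19.4) in deleted cells without contig and at 18.6 CPM (16.9 to 20.5) in deleted cells with a heavy chain only. It stood in the B220lo library at 92.7 CPM (88.0 to 97.6) without contig, 106 CPM (99.3 to 112) with a heavy chain only, 96.8 CPM (83.7 to 111) with a light chain only and 89.4 CPM (86.0 to 92.9) with both. The 4 B220lo states lay within a narrow band and the deleted states lay far below it, 5.04-fold (4.68 to 5.43) without contig and 5.67-fold (5.06 to 6.35) with a heavy chain only. With each cell thinned to 2000 UMIs, 340 of 9557 deleted cells without contig (3.56%) held a Cxcr4 UMI against 490 of 2620 B220lo cells (18.7%). Cxcr4 was also higher in cells of the B220lo library outside the B lineage: its 67 Elane cells without the Cd79a gate stood at 67.1 CPM, 2.15-fold (1.69 to 2.70) above those of the control Kit+ library, which carry the same genotype label. Against B220lo cells without contig that held a Kit UMI (193 cells, 57.6 CPM), the 8219 deleted cells with a Kit UMI stood at 18.4 CPM, a ratio of 0.320 (0.263 to 0.392).

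Ackr3, the scavenger receptor that also binds CXCL12, went the other way. It stood at 295 CPM (291 to 299) in deleted cells without contig and 2.51 CPM (1.79 to 3.41) in the B220lo cells, 118-fold (86.3 to 165) higher. With a heavy chain only it stood at 309 CPM against 0.716 CPM, a 432-fold difference (210 to 1075) that rests on 7 UMIs in the B220lo cells. At least 1 Ackr3 UMI was found in 57.3% of deleted cells without contig (median depth 6381 UMIs) and in 0.522% of the B220lo cells (median 2984.5 UMIs). In the 375 deleted cells of the Elane gate alone, as a measure of free RNA, the share was 1.60% and the level 0.868 CPM. Cxcl12 itself had at most 11 UMIs in any group.

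Ccr7, the receptor for the lymph-node chemokines CCL19 and CCL21, had 32 UMIs in the 9847 deleted cells without contig, 0.422 CPM (0.289 to 0.596), and 5 UMIs in the 2954 with a heavy chain only, 0.215 CPM (0.0699 to 0.503). The B220lo levels were 38.3, 55.3, 53.6 and 59.4 CPM without contig, with a heavy chain only, with a light chain only and with both. That was 90.8-fold (63.7 to 134) more than in the deleted cells without contig and 257-fold (109 to 795) more with a heavy chain only. After thinning, 5 of 9557 deleted cells without contig and 233 of 2620 B220lo cells (8.89%) held a Ccr7 UMI. None of the 102 Elane cells of the B220lo library did, which allows a share of up to 3.55% (exact binomial limit). Among cells without contig and with a Kit UMI, Ccr7 was at 0.466 CPM in deleted and 10.4 CPM in B220lo cells, a ratio of 0.0449.

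Cxcr5, the follicle-homing receptor that binds CXCL13, stood at 0.422 CPM and 0.388 CPM in deleted cells without contig and with a heavy chain only. In the B220lo library it was lowest in cells with a heavy chain only, 2.76 CPM (1.82 to 4.02), and stood at 10.1 CPM without contig, 15.9 CPM with a light chain only and 16.1 CPM with both. Without contig it was 23.9-fold (16.3 to 36.1) lower in the deleted cells. With a heavy chain only the groups held 9 and 27 UMIs, a 7.13-fold difference (3.25 to 17.2) that was not counted above because the total was under 50.

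Ccr9, the gut- and thymus-homing receptor, stood at 0.633 CPM (0.467 to 0.839) in deleted cells without contig and 0.258 CPM (0.0948 to 0.562) with a heavy chain only. The B220lo library held it at 24.3, 4.71, 31.8 and 12.6 CPM without contig, with a heavy chain only, with a light chain only and with both. The differences between the libraries were 38.4-fold (28.4 to 53.0) and 18.2-fold (7.76 to 52.2). Ccr9 is itself a marker of plasmacytoid dendritic cells, and 308 of the B220lo Cd79a cells also passed the Siglech gate. Without cells of any other gate Ccr9 stood at 3.77, 2.11, 10.9 and 7.61 CPM in the 4 B220lo states, and the log2 ratio of deleted over B220lo cells without contig moved from -5.26 to -2.59. With a heavy chain only the levels were then 0.266 against 2.11 CPM, on 6 and 20 UMIs, a smaller difference too. Elane cells without the Cd79a gate, of the same genotype label, stood at 2.61 CPM in the B220lo and 0.272 CPM in the control Kit+ library (9.60-fold, 1.80 to 33.2, on 3 and 17 UMIs). The 60 B220lo cells of the Elane gate alone held 0 Ccr9 UMIs (up to 3.57 CPM), so those 3 UMIs lay in cells that also passed another gate. Among cells without contig that held a Kit UMI, Ccr9 stood at a deleted over B220lo ratio of 0.104 (0.0538 to 0.216), and without cells of other gates at 0.639 against 1.26 CPM, on 41 and 2 UMIs. The 9 plasmacytoid dendritic markers, Ccr9 among them, summed to 2765 CPM in B220lo cells without contig, 1356 CPM with a heavy chain only and 3014 CPM with both. In the deleted cells they summed to 1213 and 1174 CPM with 2 of 9 at 0, Siglech one of them. The deleted library held 0 Siglech cells, so this sum does not count plasmacytoid dendritic cells. The 8 T and NK markers summed to 379 CPM in B220lo cells without contig and 62.7 CPM with a heavy chain only, against 22.0 and 18.8 CPM in the deleted cells. The part of the cells that carried these markers in the Ccr9 and Itgb7 levels, beyond the gate overlap, was not tested.

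Itgb7, whose product pairs with that of Itga4 in the gut-homing integrin, had 19 UMIs in the deleted cells without contig, 0.251 CPM (0.151 to 0.391), and 11 UMIs with a heavy chain only, 0.474 CPM (0.236 to 0.848). Its B220lo levels were 22.2 CPM without contig, 3.17 CPM with a heavy chain only, 13.9 CPM with a light chain only and 18.7 CPM with both. Without contig it was 88.5-fold (55.8 to 149) lower in the deleted cells. Without cells of any other gate the 4 B220lo states stood at 8.39, 1.58, 8.19 and 15.0 CPM, and the log2 ratio without contig moved from -6.47 to -5.09. Itgb7 too was higher in Elane cells of the B220lo library without the Cd79a gate than in those of the control Kit+ library, at 18.3 against 6.68 CPM (2.74-fold, 1.68 to 4.24). Among cells without contig that held a Kit UMI it was at 0.195 CPM in deleted and 16.6 CPM in B220lo cells.

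Itga4, the shared subunit, showed the smallest difference of the 7. It stood at 124 CPM (121 to 127) and 139 CPM (134 to 143) in deleted cells without contig and with a heavy chain only, and at 298, 212, 269 and 229 CPM in the 4 B220lo states. The deleted cells were 2.41-fold (2.32 to 2.49) lower without contig and 1.53-fold (1.45 to 1.62) lower with a heavy chain only, and the latter stayed under 2-fold. Itgb1, the other partner of Itga4, was at 78.5 CPM in deleted and 67.1 CPM in B220lo cells without contig, and stood at 75.6 and 46.2 CPM with a heavy chain only. Of the alternative partners of Itga4, Itgb7 was more than 2-fold lower in the deleted cells without contig and Itgb1 was not.

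S1pr1, the exit receptor, stood at 4.56 CPM (4.10 to 5.07) in deleted cells without contig and 5.34 CPM (4.44 to 6.37) with a heavy chain only. B220lo cells stood at 27.8, 18.7, 50.1 and 49.4 CPM without contig, with a heavy chain only, with a light chain only and with both. The deleted cells were 6.08-fold (5.27 to 7.02) and 3.51-fold (2.78 to 4.44) lower, and stood at a ratio of 0.416 (0.264 to 0.691) among cells without contig that held a Kit UMI. Against the 18 B220lo cells with a heavy chain only and a Kit UMI the log2 ratio was -0.39, under 2-fold. All 2954 deleted cells with a heavy chain only were used there, with or without a Kit UMI. In the 18 cells 3 counts equal 10.5 CPM and S1pr1 lay under that, so this ratio rests on very few UMIs. Klf2, the transcription factor that drives S1pr1 in lymphocytes, stood at 9.35 and 8.40 CPM in the deleted cells and at 274 and 270 CPM in the B220lo cells without contig and with a heavy chain only. Cd69, whose product removes S1PR1 from the surface, stood at 32.3 and 33.6 CPM in the deleted cells and at 64.0 and 43.7 CPM in the B220lo cells. Klf2 was past 2-fold in both states. It was also higher in the B220lo than in the control Kit+ library in cells of the Elane gate alone, at 5.80 against 0.995 CPM, and in all Elane cells, at 25.7 against 0.928 CPM. Cd69 was just under 2-fold without contig and past it without cells of other gates, at 32.1 against 67.0 CPM.

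**Figure D2:**
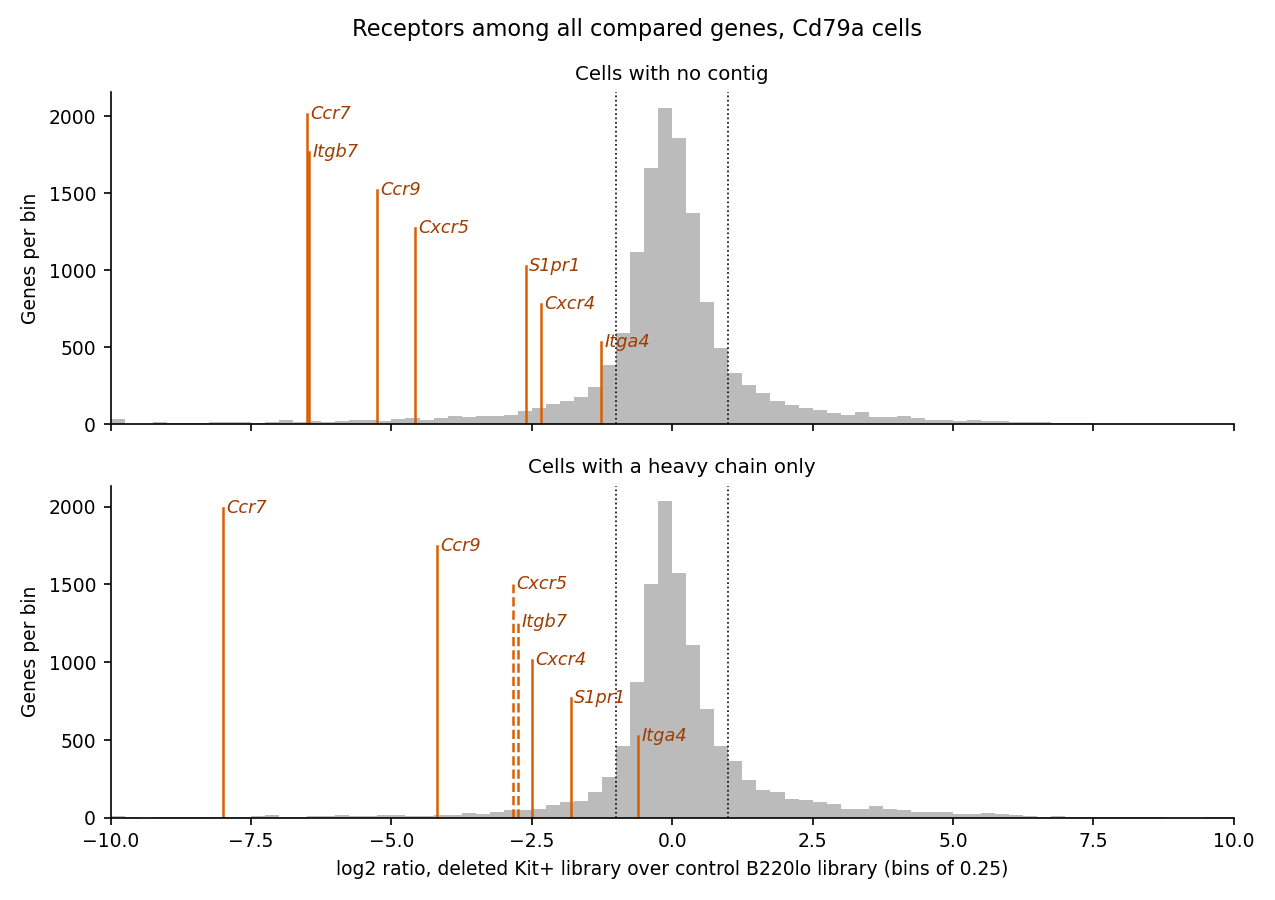
Histograms of the log2 CPM ratio, deleted Kit+ library over control B220lo library, for all genes with at least 50 UMIs over both groups (grey, bins of 0.25 on the log2 scale), with the receptors as vertical lines of arbitrary height; dashed lines are receptors under 50 UMIs, dotted lines 2-fold. All 7 receptors lie left of the 2-fold line without contig, and Itga4 alone lies right of it with a heavy chain only.

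The wider list of 86 other migration and adhesion genes was described in the same way. Of the 68 compared in cells without contig, 34 were more than 2-fold lower and 4 more than 2-fold higher in the deleted cells, with a median log2 ratio of -1.01. Of the 50 compared in cells with a heavy chain only, 19 were lower and 8 higher, with a median of -0.36. Over all genes compared, 15% were lower and 14.3% higher without contig, and 10.4% and 17.9% with a heavy chain only. The higher genes of the list thus do not exceed the share of all genes in either state. Among the lowest ratios without contig were those of Itgax, an integrin of dendritic cells (0.0132 against 12.6 CPM), and Cxcr3, a receptor for interferon-induced chemokines (0.0132 against 6.89 CPM). Each rests on 1 UMI in the deleted cells, and in the B220lo library they stood 17.5-fold and 15.8-fold higher in Siglech cells than in Cd79a cells. The lowest with a heavy chain only were Klf2, Rgs2, an inhibitor of G-protein signalling (6.12 against 89.5 CPM), and Cnr2, the cannabinoid receptor of B cells (0.345 against 4.81 CPM). Beside Ackr3, the highest ratios were those of Jam3 without contig (6.47-fold, on 123 and 4 UMIs), Alcam with a heavy chain only (6.95-fold, 45.5 against 6.55 CPM) and Foxo1, a transcription factor of B-cell development, in both states (982 against 259 CPM and 959 against 180 CPM).

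Within the B220lo library the receptors differed by contig state, in a comparison that shares sort, genotype and library. From no contig to a heavy chain only, 3 of 7 receptors were more than 2-fold lower and 0 higher, where 9.12% of 11679 genes were lower by that much, 0.505% were higher and 9.62% differed either way. They were Cxcr5 (ratio 0.274, interval 0.175 to 0.413), Ccr9 (0.194, 0.139 to 0.263) and Itgb7 (0.143, 0.0957 to 0.207). Ccr7 was 1.44-fold (1.28 to 1.62) and Cxcr4 1.14-fold (1.05 to 1.23) higher with a heavy chain, while Itga4 was lower at a ratio of 0.710 (0.674 to 0.748). For Ccr9 the log2 ratio moved from -2.37 to -0.84 once cells of other gates were left out. Markers of other cells also differed between the states. Without contig against a heavy chain only, plasmacytoid dendritic markers summed to 2765 against 1356 CPM and T and NK markers to 379 against 62.7 CPM. Mature B markers summed to 477 against 290, basophil and mast-cell markers to 43.7 against 2.56 and erythroid markers to 456 against 548 CPM. Of the 3254 cells without contig 532 held a UMI of Ms4a1, a mature B-cell gene. The part of the cells that carried any of these markers in the receptor differences was not tested. S1pr1 was lower with a heavy chain, at a ratio of 0.675 (0.565 to 0.803), but among cells without a Mki67 UMI the direction turned, with 53.0 CPM with a heavy chain only and 47.2 CPM without contig. Of the wider list, 0 of 56 genes were more than 2-fold higher and 16 lower, Ccr2 (ratio 0.122) and Itgax (0.146) among them.

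From a heavy chain only to both chains, 4 of 7 receptors were more than 2-fold higher and 0 lower, where 7.14% of 12082 genes were higher by that much, 1.42% were lower and 8.56% differed either way. Cxcr5 was 5.84-fold (3.97 to 8.96), Itgb7 5.91-fold (4.12 to 8.78), Ccr9 2.67-fold (1.96 to 3.71) and S1pr1 2.64-fold (2.26 to 3.10) higher. Among cells without a Mki67 UMI only Cxcr5 and Itgb7 stayed past 2-fold, with log2 ratios of 2.48 and 1.02, and Ccr9 and S1pr1 stood at 0.55 and 0.46. Cxcr4 was lower at a ratio of 0.846 (0.787 to 0.910), and the interval of Ccr7 (1.07-fold, 0.975 to 1.19) included 1. Cells with both chains carried more plasma-cell RNA: the 6 plasma-cell markers summed to 3519 CPM in them and 113 CPM with a heavy chain only. In the same order, plasmacytoid dendritic markers summed to 3014 and 1356 CPM and mature B markers to 1244 and 290 CPM. Basophil and mast-cell markers summed to 31.2 and 2.56 CPM and erythroid markers to 174 and 548 CPM. The part of the cells that carried any of these markers in the receptor differences was not tested. Without cells of other gates Itgb7 stood at 15.0 CPM with both chains and 1.58 CPM with a heavy chain only, a larger difference. Of the wider list, 19 of 61 genes were more than 2-fold higher and 0 lower. Ccr10, a receptor of plasma cells, had 406 UMIs with both chains and 0 with a heavy chain only, at least 44.6-fold higher against a floor of 3 counts per group. Ccr1 was 5.82-fold and S1pr3 5.67-fold higher, on 3 and 9 UMIs in cells with a heavy chain only.

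Cells with both chains were split further by Ms4a1, the gene of the mature B-cell antigen CD20. The 3124 cells with a Ms4a1 UMI stood above the 3164 without one for Cxcr5 (31.2 against 3.20 CPM, 9.75-fold, 7.28 to 13.3), S1pr1 (73.8 against 28.5 CPM, 2.59-fold, 2.32 to 2.90) and Ccr7 (70.9 against 49.5 CPM, 1.43-fold, 1.30 to 1.57). Cxcr4 stood lower in them, at 65.5 against 110 CPM (ratio 0.595, 0.549 to 0.645). Ccr9 was lower too, at 10.6 against 14.3 CPM (0.739, 0.596 to 0.914), Itga4 was 1.11-fold (1.05 to 1.16) higher, and the interval of Itgb7 (0.922, 0.776 to 1.09) included 1. Between cells with a kappa and cells with a lambda light chain the receptors differed by 1.44-fold at most, for Itgb7 (1.11 to 1.90), the other ratios lying between 0.868 and 1.25.

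In the deleted library 4 of the 7 receptors had enough UMIs to compare the contig states. With a heavy chain only against no contig, Cxcr4 stood at a ratio of 1.01 (0.909 to 1.13), S1pr1 at 1.17 (0.945 to 1.44) and Itga4 at 1.12 (1.07 to 1.16), so that only the interval of Itga4 excluded 1 among these 3. Ccr9 was the 1 of 4 compared receptors past 2-fold, at a ratio of 0.408 (0.143 to 0.955) that rests on 6 UMIs in cells with a heavy chain, where 0.571% of 13666 genes were lower by that much, 0.402% were higher and 0.973% differed either way. It was under 2-fold as a mean of each cell's CPM. Of the receptors under 50 UMIs, Ccr7 stood at a ratio of 0.510 (0.155 to 1.32), Cxcr5 at 0.918 (0.386 to 1.97) and Itgb7 at 1.89 (0.813 to 4.18), and each interval included 1. Of the wider list 1 of 60 genes, Sphk1, was past 2-fold, on 5 and 51 UMIs. Clones were taken as heavy-chain contigs of the library with the same V gene, J gene and junction (CDR3) sequence, counted over all barcodes, kept or not. Among heavy-chain cells, the 2198 in clones of at least 10 contigs stood at 6.40 CPM of S1pr1 and the 756 in smaller clones at 2.62 CPM. This 2.45-fold difference (1.46 to 4.35) rests on 107 and 17 UMIs. The interval treats UMIs as independent though cells of a clone are related, and the spread between clones was not tested. Itga4 stood at 149 and 111 CPM and Cxcr4 at 18.7 and 18.5 CPM in the same groups.

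The receptors also differed between dividing and other cells, taken as cells with at least 2 UMIs of Mki67, a proliferation gene, and cells with none. In the deleted library Cxcr4 stood at 24.8 CPM in Mki67 cells and 11.8 CPM in the others without contig (2.11-fold, 1.85 to 2.40), and at 25.7 and 12.2 CPM with a heavy chain only (2.11-fold, 1.68 to 2.67). In the B220lo library it stood at 80.0 and 110 CPM without contig (ratio 0.729, 0.654 to 0.811) and at 90.1 and 148 CPM with a heavy chain only (0.608, 0.533 to 0.694). The direction was opposite in the libraries, and the intervals did not overlap. S1pr1 was lower in Mki67 cells in each of the 5 groups, at ratios of 0.327 and 0.222 in the deleted library and 0.158, 0.0819 and 0.162 in the B220lo library without contig, with a heavy chain only and with both. Itga4 was lower in Mki67 cells of the deleted library, at ratios of 0.623 and 0.598, and stood at 0.777, 1.03 and 1.06 in the B220lo library. In the same 3 B220lo states Ccr7 stood at 0.462, 0.606 and 0.546, Cxcr5 at 0.24, 0.53 and 0.26 and Ccr9 at 0.21, 0.29 and 0.92. Itgb7 turned direction there, at 0.642, 0.305 and 1.86 (1.54 to 2.25). Cxcr5 in deleted cells without contig stood at 0.24, on 7 and 21 UMIs. Mki67 cells were deeper, with a median of 10687.5 UMIs against 4798 in deleted cells without contig and 8150 against 2500.5 in B220lo cells without contig, and the part of depth was not tested.

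**Figure D3:**
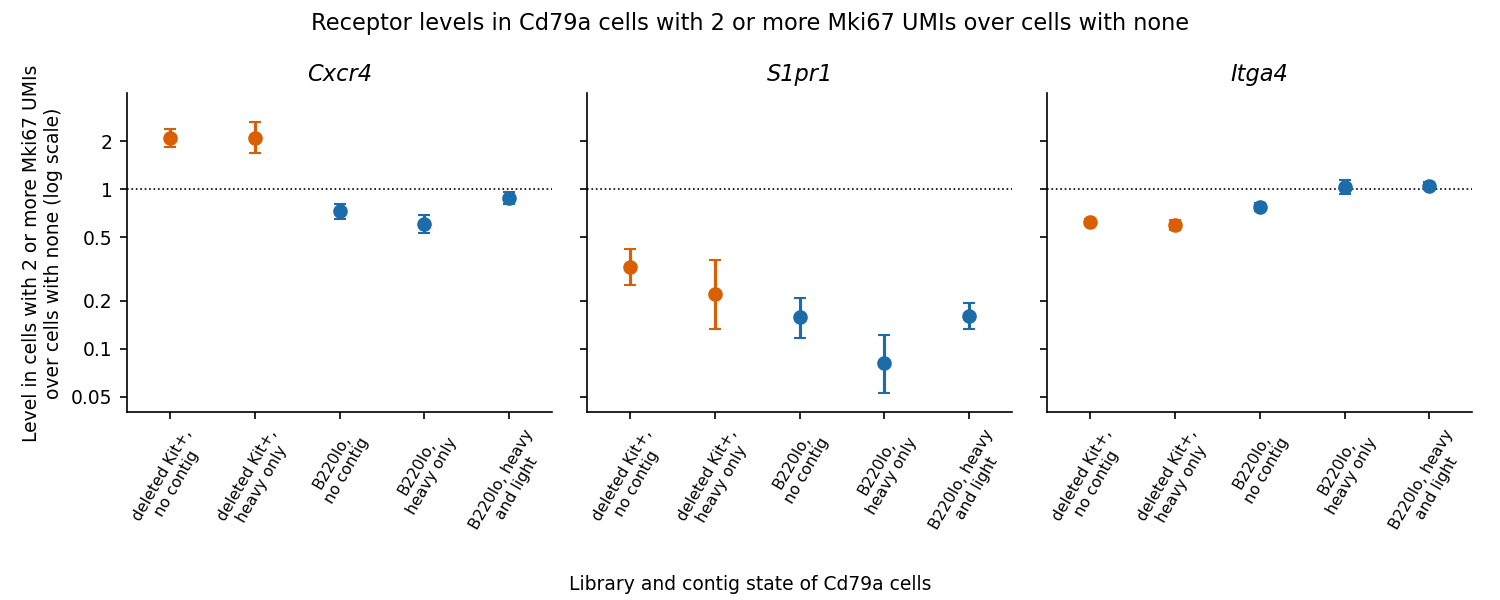
Ratio of the level in cells with at least 2 Mki67 UMIs to that in cells with none (log axis) for Cxcr4, S1pr1 and Itga4, in 5 groups of Cd79a cells; bars are exact 95% intervals for counting error and the dotted line is a ratio of 1. Cxcr4 lies above 1 in the deleted library (2.11 in both states) and below 1 in the B220lo library (0.608 to 0.885), and S1pr1 lies below 1 in all 5 groups.

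Siglech cells were found in the B220lo library, 1770 of them, against 1, 0 and 1 in the control, deleted and Mll3/4SI Kit+ libraries. Plasmacytoid dendritic cells make type I interferon and use CCR9 to reach the gut. Markers of this cell type that the gate did not use were high in them: Bst2 stood at 3621 CPM against 209 CPM in Cd79a cells of the library, Irf8 at 2802 against 276 CPM, Tcf4 at 1753 against 235 CPM and Cox6a2 at 1805 against 95.6 CPM. Ccr9 stood at 287 CPM (278 to 297, 3493 UMIs) and Itgb7 at 184 CPM (177 to 192) in Siglech cells, against 15.2 and 16.9 CPM in all Cd79a cells of the library. These were the 2 of 7 receptors more than 2-fold higher, 18.9-fold (17.6 to 20.4) and 10.9-fold (10.1 to 11.8), where 11.7% of 13319 genes were higher by that much and 25.4% differed either way. The 3 of 7 more than 2-fold lower (13.7% of genes) were S1pr1 at 3.37 against 38.2 CPM (11.3-fold, 8.33 to 15.8), Cxcr5 at 1.89 against 12.2 CPM (6.44-fold, 4.26 to 10.2) and Ccr7 at 14.9 against 52.7 CPM (3.54-fold, 3.05 to 4.14). Cxcr4 was 1.70-fold (1.57 to 1.85) and Itga4 1.27-fold (1.21 to 1.32) lower, and with thinned cells Cxcr4 passed 2-fold too, at a log2 ratio of -1.18. With cells of both gates left out, Ccr9 stood at 313 against 5.73 CPM, Itgb7 at 197 against 10.6 CPM and S1pr1 at 1.5 against 40.2 CPM, so each of these differences was larger.

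**Figure D4:**
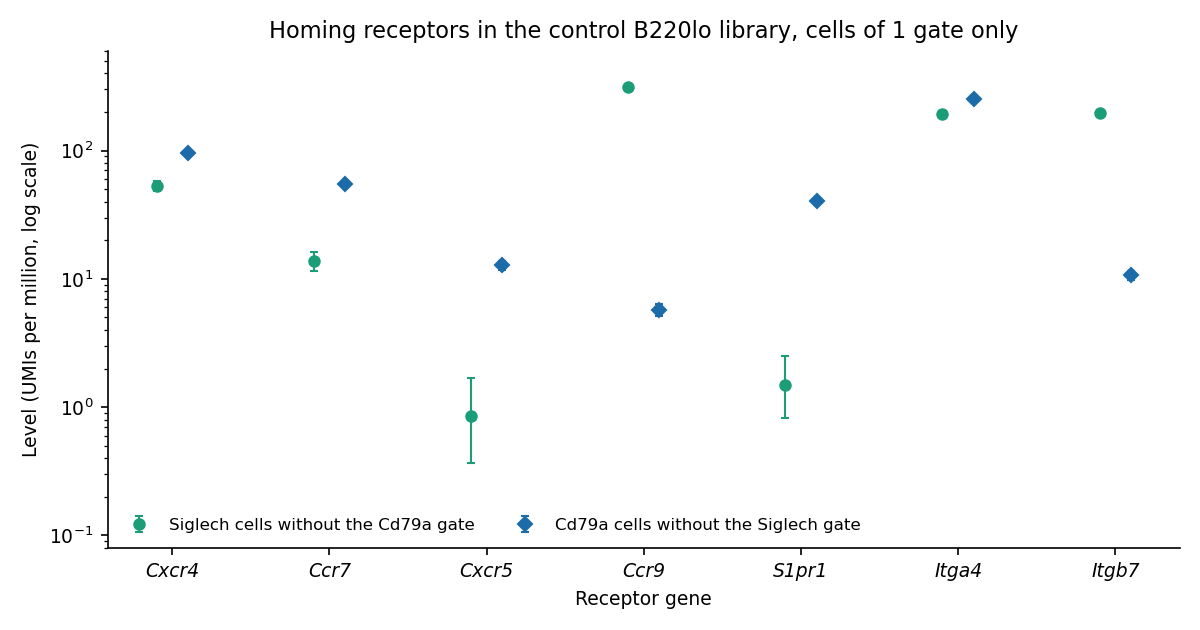
Levels of the 7 receptors (CPM, log axis) in the control B220lo library, in Siglech cells and in Cd79a cells that passed no other gate; bars are exact 95% Poisson intervals for counting error. Ccr9 (313 against 5.73) and Itgb7 (197 against 10.6) are higher in Siglech cells, and the other 5 receptors are lower.

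A Ccr9 UMI was found in 67.4% of Siglech cells at their own depth (median 5989 UMIs) and in 40.7% with each cell thinned to 2000 UMIs. After the same thinning 0 of 102 Elane cells of the library held one. The most in 1 cell was 21 UMIs. An Itgb7 UMI was found in 28.9% of the thinned Siglech cells and in 2.94% of the thinned Elane cells. Of the thinned Siglech cells, 195 of 1745 (11.2%) held both, and an Itgb7 UMI was about as frequent in cells with a Ccr9 UMI (27.4%) as in the others (29.9%). Itgb1, the other partner of Itga4, stood at 109 CPM against 49.1 CPM in Cd79a cells, Klf2 at 202 against 382 CPM and Cd69 at 21.8 against 62.3 CPM. Of the wider list 22 of 68 genes were more than 2-fold higher and 13 lower, with a median log2 ratio of 0.25. Over the 13319 genes compared, 11.7% were higher and 13.7% lower by that much. Itgax (17.5-fold) and Cxcr3 (15.8-fold) led the higher genes, and Rgs16 (ratio 0.0697), Itga9 (0.102) and Cnr2 (0.124) the lower.

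In the Kit+ libraries the Hlf gate held 2493 control, 186 deleted and 3238 Mll3/4SI cells. Itgb7 stood at 14.8 CPM (13.4 to 16.2) in control, 2.30 CPM (0.924 to 4.73) in deleted and 17.7 CPM (16.4 to 19.0) in Mll3/4SI cells. S1pr1 stood at 5.73 CPM (4.90 to 6.67), 0.656 CPM (0.0795 to 2.37) and 3.33 CPM (2.80 to 3.93). Deleted cells were lowest for both, and for neither did their interval reach that of the control. They were the 2 of 4 compared receptors more than 2-fold lower in the deleted library, Itgb7 at a ratio of 0.155 (0.0621 to 0.323) and S1pr1 at 0.114 (0.0137 to 0.42), where 5.27% of 11971 genes were lower by that much, 2.18% were higher and 7.45% differed either way. The deleted values rest on 7 and 2 UMIs, and after thinning Itgb7 UMIs were left in 2 of 184 deleted cells (1.09%) against 85 of 2479 control cells (3.43%). Cxcr4 stood at 21.1, 23.0 and 25.9 CPM and Itga4 at 189, 128 and 229 CPM, so Itga4 was lower in the deleted cells (ratio 0.680, 0.612 to 0.754) while the interval of Cxcr4 (1.09, 0.837 to 1.39) included 1.

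Some Hlf cells passed another gate: 707 control, 68 deleted and 559 Mll3/4SI cells also passed the Elane gate, and 34 deleted cells the Cd79a gate. The 12 B-lineage markers summed to 984 CPM in deleted Hlf cells, against 93.8 CPM in control and 77.4 CPM in Mll3/4SI cells. Without cells of either other gate, 1783 control, 96 deleted and 2677 Mll3/4SI cells remained. Among them Itgb7 stood at 19.9, 5.37 and 20.2 CPM (deleted over control 0.269, 0.108 to 0.561), and S1pr1 at 8.70, 0.766 and 4.24 CPM (deleted over control 0.0881, 0.00222 to 0.498, on 1 UMI in the deleted cells). Itga4 stood at 207, 145 and 236 CPM and Cxcr4 at 18.0, 17.6 and 22.5 CPM in the same cells. Markers of other lineages also differed among them. The 7 erythroid markers summed to 673 CPM in control, 121 CPM in deleted (2 of 7 at 0) and 184 CPM in Mll3/4SI cells, and the 4 megakaryocyte markers to 468, 176 and 175 CPM. The 5 basophil and mast-cell markers summed to 293, 297 and 1180 CPM, and the 8 T and NK markers to 303, 132 and 48.2 CPM, with 3, 5 and 3 of 8 at 0. It was not tested which cells carried these markers or what part they had in the receptor levels.

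In Mll3/4SI Hlf cells 0 of 4 compared receptors were past 2-fold, where 5.28% of 13094 genes were, 2.74% higher and 2.54% lower. S1pr1 was lower than in control cells at a ratio of 0.581 (0.461 to 0.732), and without cells of other gates at 0.487 (0.383 to 0.620), which is past 2-fold. Cxcr4 was 1.23-fold (1.11 to 1.36), Itga4 1.21-fold (1.17 to 1.25) and Itgb7 1.2-fold (1.06 to 1.35) higher, the last at 1.01-fold (0.887 to 1.16) without cells of other gates. Cd69, whose product opposes S1PR1, stood at 64.9 CPM in Mll3/4SI against 17.4 CPM in control Hlf cells, and at 16.7 CPM in deleted ones. Klf2 was at 1.26 to 2.0 CPM in all 3. Over all Hlf cells the marker sums in Mll3/4SI against control were 1026 against 277 CPM for basophil and mast-cell markers, 155 against 484 CPM for erythroid markers, 143 against 308 CPM for megakaryocyte markers and 90.1 against 466 CPM for T and NK markers. The T and NK markers summed to 722 CPM in all control Elane cells, so their sum need not come from T and NK cells. The part in these differences of the cells that carried the markers was not tested.

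**Figure D5:**
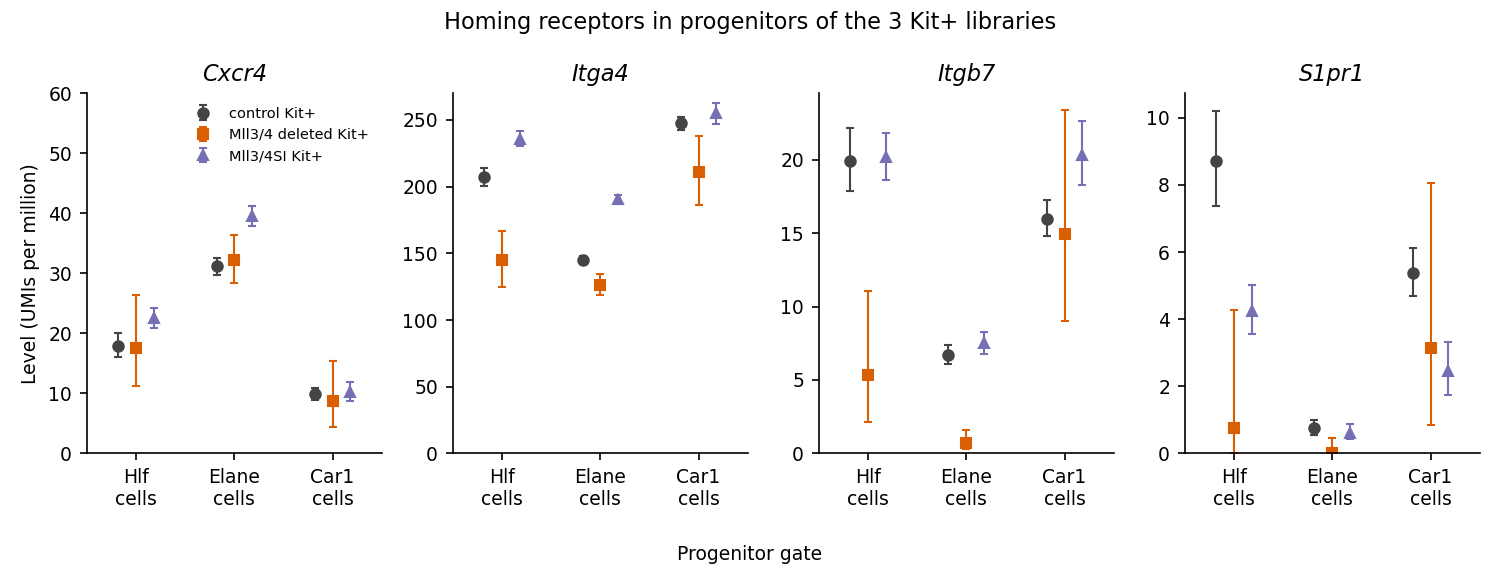
Levels of Cxcr4, Itga4, Itgb7 and S1pr1 (CPM, linear axes from 0) in progenitors of the 3 Kit+ libraries: Hlf cells without the Cd79a and Elane gates, Elane cells without the Cd79a gate and cells with at least 10 Car1 UMIs; bars are exact 95% Poisson intervals for counting error. Itgb7 is lower in deleted Hlf (5.37 against 19.9) and Elane (0.743 against 6.68) cells and level with the control in Car1 cells (15.0 against 16.0).

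The Elane gate held 4223 control, 554 deleted and 3345 Mll3/4SI cells. Itgb7 stood at 6.67, 0.820 and 7.52 CPM and S1pr1 at 0.752, 0.273 and 0.619 CPM. These were the 2 of 5 compared receptors more than 2-fold lower in the deleted library, where 4.72% of 12525 genes were lower by that much, 2.99% were higher and 7.71% differed either way. For Itgb7 the ratio was 0.123 (0.0558 to 0.236), and 0.111 (0.0406 to 0.244) without the 123 deleted cells that also passed the Cd79a gate. With each cell thinned, 0 of 554 deleted cells held an Itgb7 UMI, which allows a share of up to 0.664%, against 57 of 4199 control cells (1.36%). For S1pr1 the ratio of 0.363 had an interval of 0.0724 to 1.13 that included 1, on 3 UMIs in the deleted cells. Without cells of the Cd79a gate it had 0 UMIs in the deleted and 47 in the control cells, with an upper limit of 0.631 for the ratio. With doublets kept its log2 ratio moved from -1.46 to -0.57, under 2-fold. Cxcr4 stood at 31.2, 33.4 and 39.5 CPM and Itga4 at 145, 128 and 190 CPM. The direction of Itga4 in deleted cells depended on the setting. Its log2 ratio of -0.19 kept its sign in 6 of 8 alternatives, which ranged from -0.27 to 0.15, and was 0.13 with thinned cells. In Mll3/4SI Elane cells 0 of 5 compared receptors were past 2-fold, where 4.45% of 13208 genes were, 2.6% higher and 1.85% lower. Cxcr4 was there 1.27-fold (1.19 to 1.35) and Itga4 1.31-fold (1.27 to 1.35) higher than in the control. In control, deleted and Mll3/4SI Elane cells the basophil and mast-cell markers summed to 157, 37.6 and 484 CPM. The T and NK markers summed to 722, 643 and 278 CPM, with 1, 5 and 1 of 8 at 0. The B-lineage markers summed to 62.8, 902 and 61.0 CPM, the erythroid markers to 121, 70.0 and 73.6 CPM and the megakaryocyte markers to 48.7, 4.19 and 48.9 CPM. It was not tested which cells carried these markers or what part they had in the Elane results.

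Between the gates of the control Kit+ library, Hlf cells without other gates stood above Elane cells without the Cd79a gate for S1pr1 (11.6-fold, 8.27 to 16.4), Itgb7 (2.98-fold, 2.57 to 3.45) and Itga4 (1.43-fold, 1.37 to 1.48), and below them for Cxcr4 (ratio 0.577, 0.510 to 0.651). Erythroid-primed cells with at least 10 UMIs of Car1 were added for comparison after the other values had been seen, with 2288 control, 62 deleted and 869 Mll3/4SI cells. Itgb7 stood at 16.0, 15.0 and 20.3 CPM in them, a deleted over control ratio of 0.936 (0.560 to 1.47). The low Itgb7 of deleted Hlf and Elane cells was therefore not seen in the Car1 cells, though the difference between these gates was not tested. S1pr1 stood at 5.37, 3.15 and 2.45 CPM, with an Mll3/4SI over control ratio of 0.455 (0.318 to 0.638). Marker sums in control, deleted and Mll3/4SI Car1 cells were 18.1, 489 and 18.3 CPM for the B lineage and 97.9, 64.5 and 178 CPM for basophils and mast cells. They were 97.6, 50.4 and 19.3 CPM for the T and NK markers, with 3, 7 and 2 of 8 at 0. For the megakaryocyte markers they were 50.4, 7.08 and 39.6 CPM. It was not tested which cells carried these markers or what part they had.

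Of the wider list, 2 of 62 genes were more than 2-fold higher and 11 lower in deleted than in control Hlf cells, and 2 of 63 higher and 11 lower in Elane cells. Over all genes compared, 2.18% were higher and 5.27% lower in Hlf cells, and 2.99% and 4.72% in Elane cells, so the 2 higher genes of each gate are near the share of all genes. The higher genes in both gates were Ackr3 and Foxo1. Ackr3 stood at 24.3 CPM in deleted Hlf cells, on 74 UMIs against 0 in the control, and at 0.766 CPM, 1 UMI, once cells of other gates were left out; in Elane cells it moved likewise from 12.5 to 0.868 CPM. Foxo1 stood at 83.3 against 8.09 CPM in deleted and control Hlf cells and, without cells of other gates, at 14.6 against 9.52 CPM, under 2-fold. In Elane cells it stood at 72.4 against 4.10 CPM and, without cells of other gates, at 13.3 against 3.60 CPM. Sphk1, the kinase that makes sphingosine 1-phosphate, the ligand of S1PR1, had 0 UMIs in the 186 deleted Hlf cells and 297 in the control, at least 10.3-fold lower against a floor of 3 counts per group. In Mll3/4SI Hlf cells it stood at 2.81 CPM against 10.1 CPM, and in Mll3/4SI Elane cells at 0.564 against 1.87 CPM. In Mll3/4SI cells 3 of 65 genes were higher and 4 lower in the Hlf gate, and 2 of 65 higher and 2 lower in the Elane gate. Over all genes 2.74% were higher and 2.54% lower in the former and 2.6% and 1.85% in the latter. Itga9, an integrin subunit that binds Vcam1 as Itga4 does, was the highest in both, at 4.79-fold (3.74 to 6.23) and 6.36-fold (4.02 to 10.5), and Cxcr2, the neutrophil chemokine receptor, was 3.97-fold (3.59 to 4.40) higher in the Elane gate. Itgb1 was close in all 3 libraries, at 112 to 122 CPM in Hlf cells and 103 to 106 CPM in Elane cells.

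The genes most like each receptor were taken over 15 groups of at least 50 cells, by Pearson's r of log2(CPM + 1) among 9529 genes. These groups share libraries and depth, so the values are a description. Ccr7 was most like Dnajc7 (0.990), Serinc5 (0.988) and Dnase1l3 (0.988), Ccr9 like Olfr164 (0.987) and Uvrag (0.987), and Cxcr4 like AB124611 (0.976), Siglecg (0.974) and Gas7 (0.967). Cxcr5 was most like Hcrtr2 (0.959), Ms4a4a (0.952) and Cacna1i (0.950), and S1pr1 like Prkce (0.959), Cd55 (0.958) and Atf7ip (0.958). For Itga4 they were Bcor (0.952), Smad7 (0.921) and Ccl5 (0.921), and for Itgb7 Spaca9 (0.952), Klhl18 (0.945) and Nfkb1 (0.944).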

How the data were processed

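The deposited matrices hold raw UMI counts per gene and cell barcode, which the authors made with Cell Ranger 7.1.0 against mm10, per the submitters' processing notes. Contig counts (UMIs per assembled immunoglobulin contig) came from the authors' deposited contig tables. Kept barcodes had no fewer than 1000 UMIs and 500 genes, with 10% mitochondrial UMIs at most. Scrublet (scanpy 1.11.5, expected share 8%) scored doublets. Its own threshold called 1166, 0, 1 and 0 barcodes and had not worked in 3 libraries, so a score of 0.25 was used throughout and removed 840, 1168, 580 and 949 barcodes. UMIs were summed per gate and contig state and divided by the total of the group. Levels have exact Poisson, ratios exact conditional and shares exact binomial (Clopper-Pearson) 95% intervals, computed with scipy 1.17.1 and numpy 2.4.6 in Python 3.11.15. The ratio intervals were run on simulated Poisson counts, which checks the computation and not the spread between cells. Genes with at least 50 UMIs over the 2 groups were compared, and a ratio past 2-fold was counted. A gene could thus be compared through the UMIs of the group where it was higher. Total UMIs per library were 163751605, 130424242, 166327773 and 85445426.

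The members, gates and lists were chosen with earlier results of these data known. All 7 members were named, with the 3 genes most like each, and of the wider list Itgb1, Itgae, Cd69, Klf2, Ackr3, Cxcl12 and at most the 3 largest ratios each way. A gene that this rule names is not reported here. Itgae had at most 31 UMIs in any group compared. Splits by Mki67, Ms4a1, clone size, kappa or lambda chain and Car1 were added after other values had been seen. Of 32285 gene identifiers 32158 matched GENCODE M21. Of the 7 members 4 had a RefSeq promoter entry. Alternatives were the cell filter, doublets kept, higher or exclusive gates, another total, cell means, thinning with seed 1, fold, UMI minimum, contig minimum and B220lo cells with a Kit UMI.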

Additional observations from a re-analysis of the deposited data

Results flagged for a closer look

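Itga4 moved in opposite directions with the heavy chain in the libraries. The ratio of cells with a heavy chain only to cells without contig was 1.12 in the deleted Kit+ library and 0.71 in the control B220lo library. Cxcr4 moved in opposite directions with Mki67. In cells without contig the ratio of Mki67 cells to cells without Mki67 UMIs was 2.11 in the deleted Kit+ library and 0.729 in the control B220lo library, and in cells with a heavy chain only it was 2.11 and 0.608. The difference between the libraries was not tested in any of these cases, since each group is 1 library.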

How the results depend on the processing

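Of 108 counts of receptors past 2-fold under alternative settings, 90 stayed within 1.5 times the reported count and 18 moved. In heavy-chain-only cells, deleted against B220lo, the count of 4 went to 1 with the 18 B220lo cells that held a Kit UMI, where 3 receptors could be compared. The deleted cells were not filtered on Kit in this setting. For both chains over heavy chain only in the B220lo library, the count of 4 went to 2 as a mean of each cell's CPM, 2 with thinned cells and 2 without Mki67 cells. For heavy chain only over no contig in the deleted library, the count of 1 went to 0 under the same 3 settings. For deleted Hlf cells the count of 2 went to 1 with thinned cells. For Mll3/4SI Hlf cells the count of 0 went to 1, S1pr1, with higher gates, exclusive gates, thinned cells or a fold of 1.5. For deleted Elane cells the count of 2 went to 1 with doublets kept, higher gates, exclusive gates, thinned cells or matched depth. For Mll3/4SI Elane cells the count of 0 went to 1 with doublets kept, S1pr1 at a log2 ratio of -1.05. Fewer receptors passed the 50-UMI minimum in some of these; beyond that the cause was not tested. Of the 28 ratios past 2-fold, 245 of 245 alternatives kept the sign and 235 stayed past 2-fold. An alternative that left a receptor under 50 UMIs over the 2 groups gave no ratio and is not among the 245. In deleted Elane cells S1pr1 had 4 such alternatives with a ratio, where Cxcr4 had 8. For cells without contig, deleted over B220lo, the log2 ratio ranged from -3.22 to -1.65 for Cxcr4 and from -7.53 to -4.62 for Ccr7. Settings without Mki67 cells and with matched depth were chosen after seeing the data. No paired analysis was possible because each group was 1 library. The number of cells, 186 against 2493 in the control, limits S1pr1 and Itgb7 in deleted Hlf cells, which rest on 2 and 7 UMIs.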

Other observations

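In the Kit+ sorts 28 control, 20 deleted and 21 Mll3/4SI cells had at least 2 Cd79a UMIs and both immunoglobulin chains, and 23, 10 and 17 of them held a Ms4a1 UMI. In these, Ccr7 stood, in that order, at 89.0, 23.1 and 63.6 CPM, and Cxcr5 at 51.9, 46.2 and 46.3 CPM. Itgb7 stood at 66.8, 7.71 and 69.4 CPM. The deleted values of Ccr7, Cxcr5 and Itgb7 rest on 3, 6 and 1 UMIs, and that of Itgb7 has an interval of 0.195 to 42.9 CPM. With so few cells no comparison was made.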
